A study of Mus musculus with 28 samples.

Results

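Complement is a set of blood and tissue proteins that mark cells, debris and microbes for removal, and 9 genes of this cascade are described here across the cerebral cortex of mice with an autoimmune brain disease. They were chosen by name, with earlier results of these data known: C1qa, C1qb, C1qc, C3, C4b, Serping1, Cfb, C3ar1 and Cd59a. All 9 were found among the 43629 genes of the count table, by matching gene identifiers to symbols. RNA came from the cortex of Glt25d2 BacTRAP mice, in which the Glt25d2 gene (now Colgalt2) drives a ribosome tag in projection neurons of layer 5. The tagged ribosomes were pulled down to give the IP fraction, and the RNA before pulldown, from all cells of the cortex, is the input. Diseased mice carried EAE (experimental autoimmune encephalomyelitis, in which T cells attack myelin, as studied for multiple sclerosis), actively induced with MOG35-55, a peptide of a myelin protein. They were in the acute phase, 15 days after immunisation, or in the chronic phase, 30 days after it. Healthy mice of the same transgenic line were the comparison. Each fraction had 5 acute, 4 chronic and 5 healthy libraries, 28 in all, and the mice's age was not given in the labels used here.

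In the classical pathway, C1q, built from the products of C1qa, C1qb and C1qc, binds its target and activates the proteases C1r and C1s, which cleave C4 and C2. The convertase that forms cleaves C3, whose large fragment stays on the target as a tag for phagocytes and whose small fragment C3a signals through the receptor made from C3ar1. Factor B, from Cfb, is the protease of the alternative pathway, which amplifies C3 cleavage. Serping1 encodes C1 inhibitor, which inactivates C1r and C1s, and Cd59a encodes a membrane protein that blocks the last step, the assembly of the membrane attack complex. In the brain, microglia are the main source of C1q, astrocytes and microglia can make C3 and C4, and complement takes part in the removal of synapses.

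An IP library held 6198088 to 21229550 counts in all, and an input library 17848273 to 27915940. Genes with a count numbered 9566 to 17995 in an IP library and 20714 to 21734 in an input library. The biological coefficient of variation, the spread between libraries of a group beyond counting noise, was 1.06 in IP and 0.101 in input. On simulated counts, 32.7% of genes changed 4-fold were recovered in the acute IP comparison and 96.8% in the acute input comparison. The summed level of 10 marker genes of layer 5 projection neurons was 1124 to 2189 CPM (counts after scaling each library by its total and the TMM factor) in IP libraries and 719 to 865 CPM in input libraries. Whether libraries of 1 group are separate mice is not stated in the labels, so p-values rest on the spread from library to library, part of which may be technical. Chronic library 4 stood apart in both fractions for several of the genes. It also had the highest summed oligodendrocyte markers of the chronic libraries (3247 CPM in input, against 2105 to 2247, and 2475 CPM in IP, against 963 to 1298) and the lowest layer 5 sum of the IP libraries (1124 CPM). The part of this in the results was not tested.

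The C1q genes lie side by side on the minus strand of chromosome 4 (GRCm38, the build of the files): C1qa (ENSMUSG00000036887) at chr4:136895917-136898803, C1qc (ENSMUSG00000036896) at chr4:136889804-136893065 and C1qb (ENSMUSG00000036905) at chr4:136880129-136886187. Chromosome 17 holds C3 (ENSMUSG00000024164) at chr17:57203970-57228136, C4b (ENSMUSG00000073418) at chr17:34728380-34743882 and Cfb (ENSMUSG00000090231) at chr17:34856374-34862518, all on the minus strand. Serping1 (ENSMUSG00000023224) lies at chr2:84765387-84775444 on the minus strand and Cd59a (ENSMUSG00000032679) at chr2:104095801-104115354 on the plus strand. C3ar1 (ENSMUSG00000040552) lies at chr6:122847138-122856161 on the minus strand. Counts were summed over all exons of a gene, and exons of 8 of the 9 genes overlapped no other annotated gene. Of Cfb's exonic bases, 79.5% are shared with the annotated gene Gm20547, which had 0 counts in every library, and 81.0% of its 100-base windows also occur there. Reads in the shared part may have been assigned to neither gene, so that Cfb's counts may be too low by an unknown amount. Of the 100-base windows of C4b, 16.5% also occur in its close copy C4a, so that C4b counts are uncertain to that extent, and for Cd59a and Cd59b the share is 0.293%.

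Promoter sequence was available for 5 of the 9 genes, in RefSeq's GRCm38.p6 table, and 4 are printed to set the C1q pair and C3, whose RNA was higher in acute input, beside Cd59a, whose RNA did not pass the test. Each run ends at the base before the RefSeq start, 5′ to 3′ on the gene's own strand, and of C1qc the table holds 99 bases. Capitals mark matches, on either strand, to the core of an interferon response element (GAAA, any 2 bases, GAAA), to NF-kB (GGG, any 5 bases, CC) or to TTNNGNAA (C/EBP-like). TTCNNNGAA (the site of STAT factors) and TATAAA (a core promoter element) were also searched and matched in none of the 4. The available promoter not printed is that of C3ar1, also higher in acute input. It had 1 TATAAA match beginning 235 bases before the start and 1 NF-kB match beginning 14 bases before it. C1qb covers chr4:136886201-136886450, C1qc chr4:136893066-136893164, C3 chr17:57228137-57228386 and Cd59a chr2:104095551-104095800.
C1qb: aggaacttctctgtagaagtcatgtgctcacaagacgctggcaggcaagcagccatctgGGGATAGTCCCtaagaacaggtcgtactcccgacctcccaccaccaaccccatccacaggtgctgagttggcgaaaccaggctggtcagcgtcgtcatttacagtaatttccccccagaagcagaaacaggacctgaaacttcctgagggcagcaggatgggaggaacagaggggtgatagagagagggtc
C1qc: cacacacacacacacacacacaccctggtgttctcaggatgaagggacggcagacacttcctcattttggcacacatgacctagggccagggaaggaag
C3: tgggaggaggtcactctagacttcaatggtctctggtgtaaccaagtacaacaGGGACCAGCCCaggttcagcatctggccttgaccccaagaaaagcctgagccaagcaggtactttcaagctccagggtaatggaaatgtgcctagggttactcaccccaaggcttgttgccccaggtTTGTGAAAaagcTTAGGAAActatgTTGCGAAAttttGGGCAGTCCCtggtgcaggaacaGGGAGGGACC
Cd59a: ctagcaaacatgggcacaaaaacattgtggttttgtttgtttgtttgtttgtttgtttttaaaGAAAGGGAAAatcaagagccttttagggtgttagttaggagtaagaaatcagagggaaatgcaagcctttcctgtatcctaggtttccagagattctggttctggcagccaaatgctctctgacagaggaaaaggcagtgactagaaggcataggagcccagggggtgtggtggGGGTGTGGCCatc
In C1qb the capitals are a pair of overlapping NF-kB matches, and C1qc has no match in its shorter window. C3 has 3 C/EBP-like matches between 70 and 38 bases before the start, and NF-kB matches beginning 197, 196, 33 and 10 bases before it. Cd59a has 1 interferon response core and 1 NF-kB match. Among 32851 mouse promoters of 250 bases, 45.8% hold the NF-kB letters, 36.8% the C/EBP-like letters and 2.98% the interferon response core. These are matches of letters only, and binding was not measured.

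In acute input, 7 of the 8 members that could be tested were higher than in healthy input, namely C1qa, C1qb, C1qc, C4b, C3, C3ar1 and Serping1, and Cd59a did not pass the test. Of all 16381 genes tested, 11.1% were called higher. C3 stood 33.3-fold higher, C4b 9.19-fold, C1qb 5.42-fold, Serping1 4.27-fold, C1qa 4.13-fold, C1qc 3.77-fold and C3ar1 2.65-fold. In these 7 genes every acute library lay above every healthy one, and 9.11% of all genes had groups that did not overlap in that direction. The median log2 change over the 8 tested members was 2.07, against -0.01 over all genes tested. Because the members were chosen with earlier results known, these comparisons with all genes are a description and no test of the set. In whole-cortex RNA, more cells of a type and more RNA per cell cannot be told apart.

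**Figure D1:**
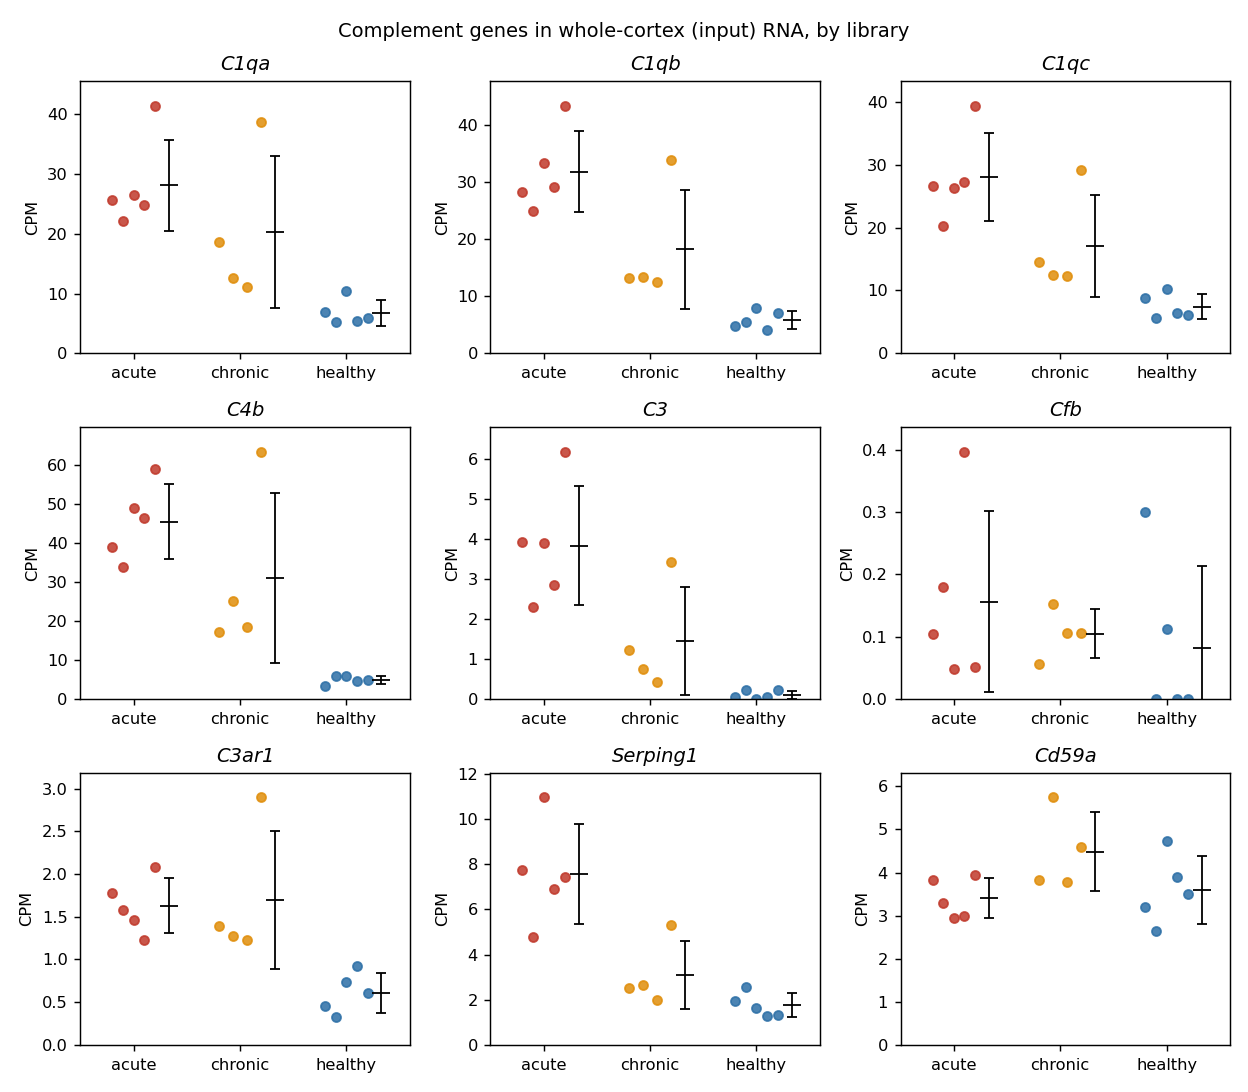
Level (CPM) of the 9 complement genes in each input library, 1 panel per gene, with acute, chronic and healthy groups from left to right. Points are libraries, placed left to right by number, and the black marks show mean ± SD (5, 4 and 5 libraries; bars that reach below 0 are cut at the axis). In 7 panels the acute points lie above all healthy points, chronic library 4 lies far above the other chronic libraries for C1qb (33.9 CPM against 12.6 to 13.4), and in the Cd59a and Cfb panels the groups overlap.

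C1qa, the A chain of C1q, had 25.6, 22.1, 26.5, 24.8 and 41.4 CPM in acute input, 18.7, 12.7, 11.1 and 38.6 CPM in chronic input, and 6.95, 5.16, 10.5, 5.36 and 5.99 CPM in healthy input. Acute library 5 and chronic library 4 were the highest of their groups, and neither group overlapped the healthy one. The log2 change was 2.05 ± 0.36 (SE) in acute input (edgeR quasi-likelihood test, Benjamini-Hochberg adjusted p = 0.00198) and 1.58 ± 0.38 in chronic input, where it missed the threshold (adjusted p = 0.0525, same edgeR test). C1qb, the B chain, had 28.4, 25.0, 33.4, 29.2 and 43.4 CPM in acute input, 13.2, 13.4, 12.6 and 33.9 CPM in chronic input, and 4.75, 5.55, 7.94, 4.17 and 6.99 CPM in healthy input. Its log2 change was 2.44 ± 0.32 in the acute phase (edgeR adjusted p = 0.000197) and 1.64 ± 0.33 in the chronic phase (edgeR adjusted p = 0.0215). C1qc, the C chain, averaged 27.98 ± 6.99 CPM in acute, 17.1 ± 8.11 CPM in chronic and 7.39 ± 1.995 CPM in healthy input (SD, n = 5, 4 and 5). Its log2 change was 1.92 ± 0.28 in the acute phase (edgeR adjusted p = 0.00047) and 1.21 ± 0.30 in the chronic phase, which missed the threshold (edgeR adjusted p = 0.0564). Without chronic library 4 the chronic log2 changes were 1.05 for C1qa, 1.15 for C1qb and 0.82 for C1qc (edgeR adjusted p = 0.113, 0.0123 and 0.124). Across the 14 input libraries, the root mean square difference of log2 CPM, each gene centred on its mean in healthy input, was 0.235 between C1qa and C1qc, 0.33 between C1qa and C1qb and 0.447 between C1qb and C1qc, where it was 0.446 between C1qc and Serping1.

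Markers of microglia, the cells that make C1q, were measured in the same libraries. The summed level of 12 microglial marker genes was 89.5 to 123 CPM in acute input, 84.6 to 146 CPM in chronic input and 73.9 to 96.5 CPM in healthy input, and none of the 12 was at 0 in any input library. In acute input 3 of the 12 were called higher and 1 lower, where 11.1% and 8.59% of all genes were. Tyrobp, a signalling adaptor of myeloid receptors, changed by 1.91 ± 0.22 on the log2 scale and Aif1, an actin-binding protein of microglia and macrophages, by 1.38 ± 0.16. Tmem119, a marker of resident microglia, changed by 0.78 ± 0.22, and P2ry12, the purine receptor of resting microglia, fell by 0.54 ± 0.16. The sum of 12 markers of infiltrating leukocytes was 16.9 to 34.1 CPM in acute, 11.6 to 31.0 CPM in chronic and 6.60 to 19.3 CPM in healthy input, where Cd3g, Ms4a1 and Ly6c2 were at 0 in all 5 libraries. Of the 7 leukocyte markers that could be tested in input, edgeR called 6 higher in the acute and 6 in the chronic phase. Of all genes, 11.1% and 2.33% were called higher there. The median log2 changes of the 7 were 3.97 and 3.26, and the lowest were -1.06 and 0.09, with none called lower. The part of these cells in the C1q result was not tested. Chronic library 4, with the highest C1q of its group, also had the highest microglial sum (146 CPM) of all input libraries.

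C4b, whose protein is cleaved by C1s and forms part of the C3 convertase, had 39.1, 33.9, 49.1, 46.4 and 59.0 CPM in acute input, 17.2, 25.2, 18.5 and 63.6 CPM in chronic input, and 3.40, 6.04, 5.97, 4.55 and 4.83 CPM in healthy input. All acute and chronic libraries lay well above the healthy ones. The log2 change was 3.20 ± 0.39 in the acute phase (edgeR adjusted p = 0.000158) and 2.65 ± 0.41 in the chronic phase (edgeR adjusted p = 0.00502). Without chronic library 4 the chronic value was 2.03 and was still called (edgeR adjusted p = 0.000435).

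C3, the protein on which all complement pathways meet, was near 0 in healthy input. It had 3.92, 2.30, 3.91, 2.87 and 6.19 CPM in acute input, 1.22, 0.763, 0.426 and 3.43 CPM in chronic input, and 0.05001, 0.220, 0, 0.0542 and 0.222 CPM in healthy input. The healthy libraries together held 10 C3 reads, against 403 in the acute and 110 in the chronic libraries, and the groups did not overlap. The log2 change was 5.06 ± 0.66 in the acute phase (edgeR adjusted p = 8.49e-05) and 3.68 ± 0.76 in the chronic phase (edgeR adjusted p = 0.016). Without chronic library 4 the chronic value was 2.81 (edgeR adjusted p = 0.0236). Cfb was too low to test: its libraries held 18 reads in all in acute input, 8 in chronic input and 8 in healthy input, with 0.0489 to 0.397, 0.0555 to 0.153 and 0 to 0.300 CPM, and the groups overlapped.

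Of 12 astrocyte genes, 4 were called higher in acute and 2 in chronic input, where 11.1% and 2.33% of all genes were. The sum of the 12 was 1287 to 1946 CPM in acute, 1254 to 2144 CPM in chronic and 895 to 1255 CPM in healthy input, with chronic library 4 the highest at 2144 CPM. Gfap, the intermediate filament of reactive astrocytes, was 4.59-fold higher in acute and 2.42-fold higher in chronic input. The part of astrocytes in the C4b and C3 results was not tested.

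C3ar1, the receptor for C3a, had 1.78, 1.58, 1.47, 1.23 and 2.08 CPM in acute input, 1.39, 1.27, 1.23 and 2.90 CPM in chronic input, and 0.450, 0.329, 0.732, 0.921 and 0.610 CPM in healthy input. Both disease groups lay above the healthy one. The log2 change was 1.41 ± 0.31 in the acute phase (edgeR adjusted p = 0.00317) and 1.47 ± 0.33 in the chronic phase (edgeR adjusted p = 0.0162).

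Of the regulators, Serping1 passed the test in the acute phase and Cd59a did not. Serping1 had 7.74, 4.77, 10.96, 6.92 and 7.44 CPM in acute input, 2.50, 2.64, 1.97 and 5.32 CPM in chronic input, and 1.95, 2.58, 1.63, 1.30 and 1.33 CPM in healthy input. The acute libraries lay above the healthy ones, and the chronic and healthy libraries overlapped. Its log2 change was 2.09 ± 0.28 in the acute phase (edgeR adjusted p = 5.57e-05) and 0.82 ± 0.31 in the chronic phase, below the threshold (edgeR adjusted p = 0.223). Cd59a, the brake on the membrane attack complex, had 3.82, 3.30, 2.94, 2.997 and 3.95 CPM in acute input, 3.83, 5.74, 3.78 and 4.59 CPM in chronic input, and 3.20, 2.64, 4.73, 3.90 and 3.49 CPM in healthy input. The groups overlapped, and the log2 change was -0.08 ± 0.17 in the acute phase (edgeR adjusted p = 0.795; 0.04 without healthy library 3) and 0.32 ± 0.18 in the chronic phase (edgeR adjusted p = 0.446).

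**Figure D2:**
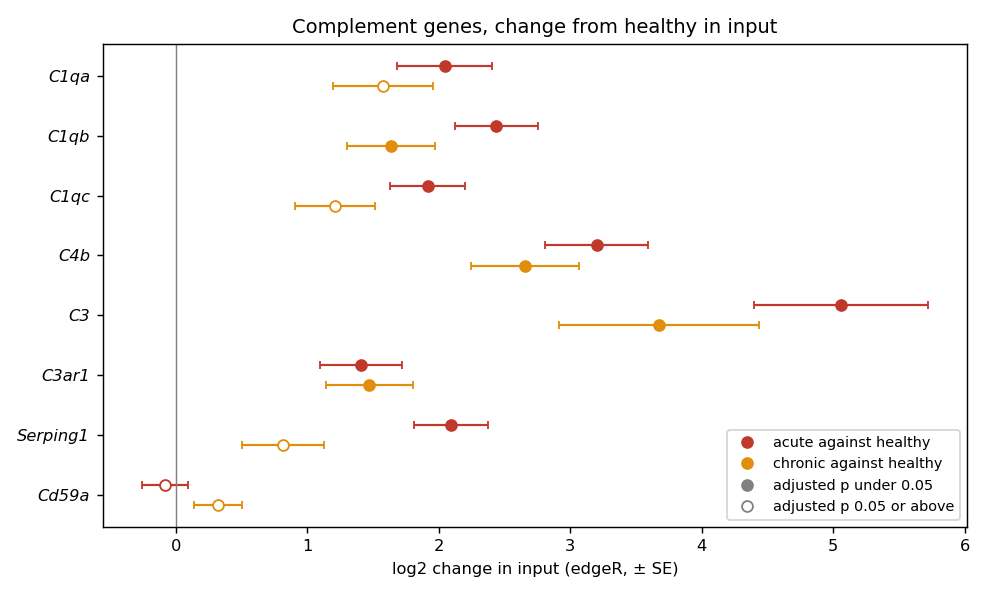
Log2 change in input (horizontal axis, edgeR, ± SE) of the 8 tested complement genes, with acute against healthy above chronic against healthy for each gene. Filled points passed an adjusted p of 0.05 and open points did not. C3 lies farthest to the right at 5.06 in the acute phase, Cd59a lies at 0 within its error in the acute phase, and 4 chronic points are filled.

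In chronic input 4 of the 8 tested members were called higher than in healthy input (C3, C4b, C1qb and C3ar1), where 2.33% of all genes were. In 6 members every chronic library lay above every healthy one, against 3.93% of all genes. The median log2 change of the 8 members was 1.53, against 0.0017 over all genes. These calls leaned on few libraries. Without healthy library 1 only C4b was called, and C3 was also lost with voom (log2 change 2.98, limma adjusted p = 0.0519). C1qb was also lost without healthy library 2 or 4 (adjusted p = 0.057 and 0.0546, edgeR), and C3ar1 without chronic library 4 (log2 change 1.08, edgeR adjusted p = 0.117). C1qa was gained without chronic library 2 or 3 or healthy library 3. DESeq2 called C1qa and C1qc as well, 6 members in all, and a fit of IP and input together, with its wider shared spread, called none in either phase.

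Between chronic and acute input, 1 member passed the test. Serping1 was lower in chronic input, with a log2 change of -1.27 ± 0.28 (edgeR adjusted p = 0.0115), 2.42-fold, and 4.74% of all genes were called lower. In 7 members the test was not passed: the log2 change was -1.38 ± 0.48 for C3, -0.80 ± 0.30 for C1qb, -0.70 ± 0.28 for C1qc, -0.55 ± 0.35 for C4b, -0.47 ± 0.35 for C1qa, 0.06 ± 0.29 for C3ar1 and 0.40 ± 0.18 for Cd59a. Chronic library 4 decided this count. Without it, 6 members were called lower in the chronic phase, with log2 changes of -2.25 for C3 (edgeR adjusted p = 0.00257), -1.29 for C1qb, -1.17 for C4b, -1.10 for C1qc and -0.99 for C1qa beside Serping1. C3ar1 then stood at -0.33 and remained under the threshold (edgeR adjusted p = 0.558).

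Levels per kilobase of exon allow the genes other than Cfb, most of whose exonic length is shared, to be ranked. In acute input C1qb (29.3 CPM per kb) and C1qa (27) led with overlapping ranges, followed by C1qc (14.5), C4b (7.99), Serping1 (3.25), Cd59a (1.88), C3 (0.746) and C3ar1 (0.378). Serping1 overlapped Cd59a and C3 overlapped C3ar1, and the other neighbours were apart on these lengths. The place of C1qc depends on the length used: its summed exons cover 1931 bases, and its longest coding transcript has 1203. Before division by length, C1qb, C1qa and C1qc had means of 31.9, 28.1 and 27.98 CPM in acute input. In chronic input the order was C1qa (19.5 CPM per kb), C1qb (16.8), C1qc (8.87), C4b (5.46), Cd59a (2.48), Serping1 (1.34), C3ar1 (0.394) and C3 (0.284), and only Serping1 and C3ar1 were apart as neighbours. In healthy input C1qa (6.53 CPM per kb), C1qb (5.40) and C1qc (3.83) overlapped one another in turn, and Cd59a came next at 1.98, above C4b (0.870), Serping1 (0.757), C3ar1 (0.141) and C3 (0.0212). C4b overlapped Serping1, and C3ar1 and C3 did not overlap. Per kilobase Cd59a was thus below C4b in acute input and above it in healthy input, and C3 was at the foot of the healthy order.

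The genes most like each member in the 14 input libraries were sought among 12359 other genes, by the root mean square difference of centred log2 CPM, which measures likeness in these libraries and nothing else. Nearest to C1qa were Ly86, B2m and Ctss, at 0.228, 0.250 and 0.255. Nearest to C1qb were Ctss, B2m and Ly86, and nearest to C1qc were Tap2 (0.206), Tyrobp and Ly86. C3 lay nearest to Psmb8, Igtp and Irgm2, at 0.521, 0.543 and 0.584, with log2 changes of 4.39, 4.33 and 4.44 in acute input. C4b lay nearest to Cd52, H2-K1 and Lyz2, and Serping1 to Rnf213 (0.281), Hk3 and Pycard. C3ar1 lay nearest to Csf3r (0.303), Unc93b1 and Rasal3, and Cd59a to Pcdhb22 (0.146), Nfatc3 and Tspan2. The points compared share their libraries and the contrast between disease and health.

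Beyond the 9 members, 45 further complement genes were examined and 26 could be tested in input. In acute input 7 of the 26 were called higher and 1 lower, where 11.1% and 8.59% of all genes were, with a median log2 change of 0.15, against -0.01 over all genes. The proteases of the C1 complex rose: C1ra had 1.40 to 3.69 CPM (median 3.09) in acute input and 0.721 to 1.26 CPM (median 1.01) in healthy input, a log2 change of 1.44 ± 0.29 (edgeR adjusted p = 0.00149). C1s1 rose by 1.48 ± 0.48 (edgeR adjusted p = 0.0338), although 18.4% of its exonic bases are shared with the antisense gene Gm16567 and the groups overlapped. Receptors formed the largest group called, 4 of 7 tested. C5ar1, the receptor for C5a, averaged 0.793 ± 0.271 CPM in acute and 0.181 ± 0.133 CPM in healthy input (SD, n = 5 each), a log2 change of 2.08 ± 0.45 (edgeR adjusted p = 0.0024). Itgam and Itgb2, the chains of complement receptor 3, changed by 1.15 ± 0.27 and 1.90 ± 0.40, and Itgax, which pairs with Itgb2 in another C3 fragment receptor, by 2.75 ± 0.62 from 10 reads in all healthy libraries. The scavenger collectin Colec12 changed by 0.60 ± 0.18.

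Csmd3, a large neuronal membrane protein with complement control repeats, was the gene called lower, with 11.1 ± 0.408 CPM in acute and 16.2 ± 2.21 CPM in healthy input (SD, n = 5 each) and a log2 change of -0.54 ± 0.10 (edgeR adjusted p = 0.000516). Its relatives Csmd1 and Csmd2 stood at -0.03 ± 0.07 each. The membrane regulators Cd55, Cr1l, Cd59b and Cd46 did not pass the test in acute input, with log2 changes of 0.07 ± 0.18, -0.04 ± 0.11, 0.08 ± 0.23 and -0.63 ± 0.33, and C2, the protease partner of C4, stood at 0.43 ± 0.29, with 46.9% of its exonic bases shared with Gm20547 or Zbtb12. In chronic input 1 of the 26 genes was called higher, Itgam (1.13 ± 0.29, edgeR adjusted p = 0.0401), where 2.33% of all genes were, and none lower. C5ar1 at 1.70 ± 0.49 and Itgb2 at 1.63 ± 0.43 missed the threshold (edgeR adjusted p = 0.0724 and 0.0525). C4a and Hc, the gene for C5, were under the filter. Their groups had 48, 24 and 22 reads for C4a, and 28, 22 and 23 reads for Hc, in acute, chronic and healthy input.

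**Figure D3:**
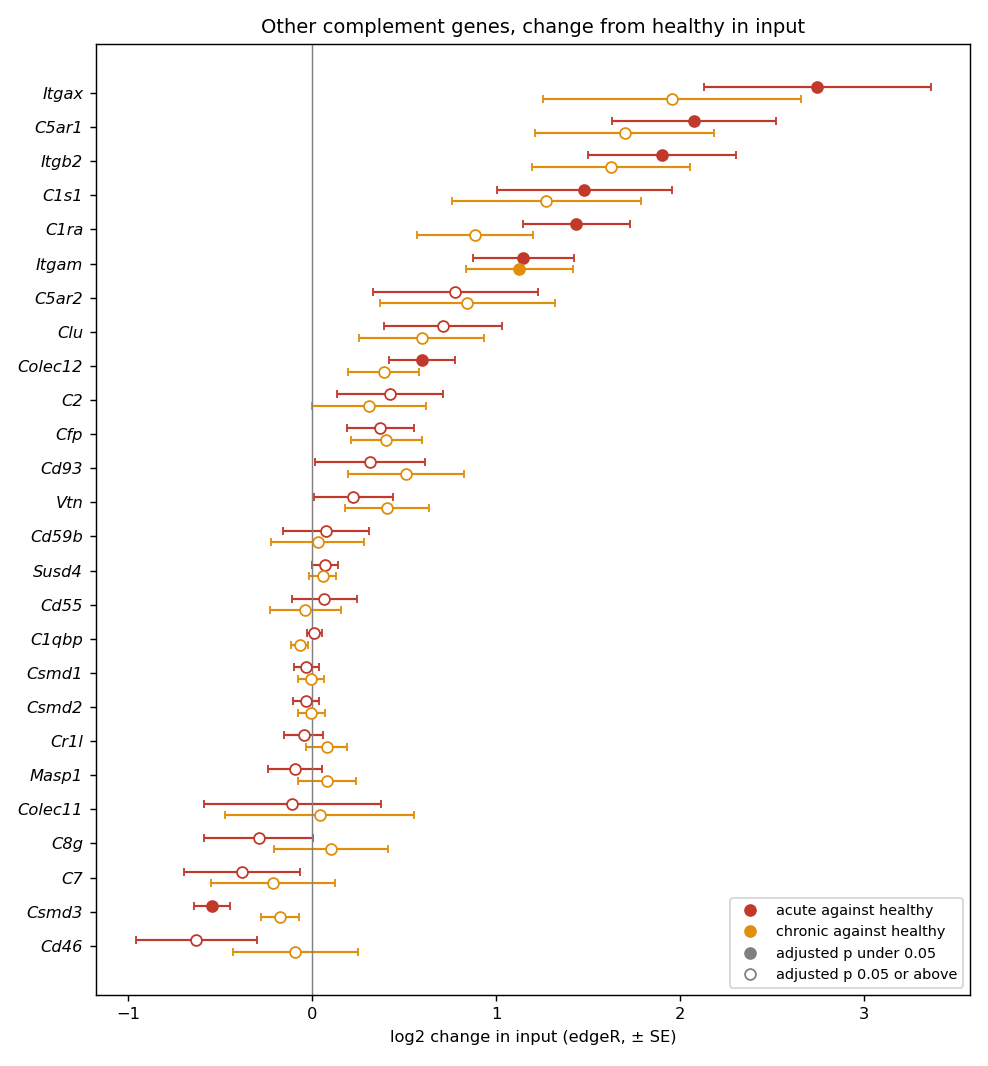
Log2 change in input (horizontal axis, edgeR, ± SE) of the 26 other complement genes that could be tested, ordered by the acute value, with acute against healthy above chronic against healthy. Filled points passed an adjusted p of 0.05 and open points did not. Itgax, C5ar1 and Itgb2 lie at the top (2.75, 2.08 and 1.90 in the acute phase), and Csmd3 is the filled point left of 0.

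In the IP fraction C4b was the only member whose acute and chronic libraries did not overlap the healthy ones. It had 16.6, 40.8, 75.9, 57.2 and 102 CPM in acute IP, 24.1, 23.9, 6.25 and 140 CPM in chronic IP, and 0, 3.66, 5.81, 5.02 and 0 CPM in healthy IP. Every acute and every chronic library lay above every healthy one, as in 1.34% and 2.85% of the 13914 genes tested in IP. The log2 change was 4.33 ± 1.15 in acute IP and 4.06 ± 1.16 in chronic IP, and neither passed the correction (edgeR adjusted p = 0.286 and 0.189). Without chronic library 4 the chronic value was 2.64 (edgeR adjusted p = 0.505). The sum of the 12 astrocyte genes was 775 to 1142 CPM in acute IP, 624 to 1653 CPM in chronic IP and 340 to 675 CPM in healthy IP. The chronic and healthy sums overlapped. Of the 12 genes, 1 was called higher in acute IP, Gfap (2.81 ± 0.44, edgeR adjusted p = 0.0282), and 0 in chronic IP. Of all genes, 0.0647% and 0.187% were called there. The part of astrocyte RNA in the C4b value was not tested.

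No member was called between phases in IP. edgeR called 0 of the 7 members tested in acute IP, 0 in chronic IP and 0 between the phases, where 0.0647%, 0.187% and 0.0% of all genes were called, and 2, 2 and 0 members had an unadjusted p under 0.05. DESeq2 called none in any of the 3 comparisons. Voom with library weights called C3 in acute IP, where it called 380 of 13914 genes. The fit of all 28 libraries together called C3, C4b and C3ar1 in acute IP and in chronic IP. It called 1611 and 2550 of 16580 genes in these comparisons. Its biological coefficient of variation was 0.71, against 1.06 in IP alone. The chronic IP reads of C3 and C3ar1 all came from library 4.

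**Figure D4:**
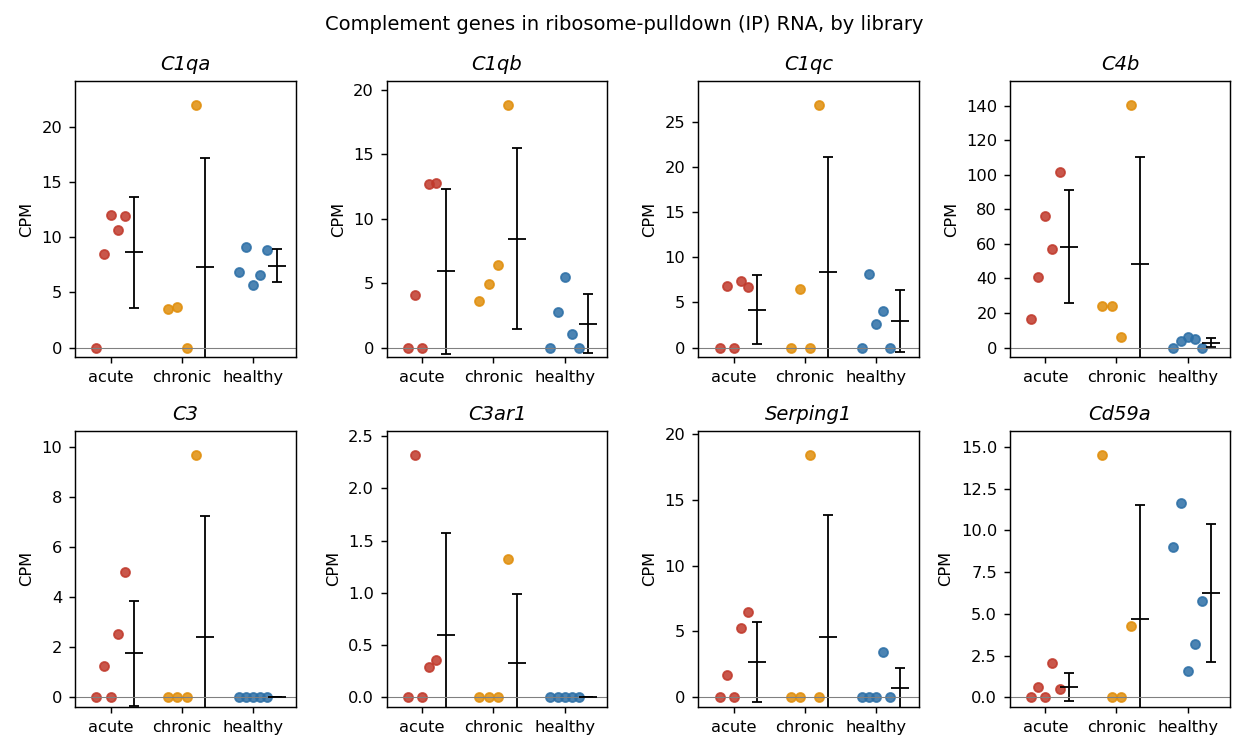
Level (CPM) of 8 complement genes in each IP library, 1 panel per gene, with acute, chronic and healthy groups from left to right. Points are libraries, placed left to right by number, and black marks show mean ± SD (5, 4 and 5 libraries; bars that reach below 0 are cut at the axis). Points at 0 are frequent, C4b is the panel in which no acute or chronic point overlaps the healthy ones, and C3 and C3ar1 are at 0 in all 5 healthy libraries.

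C3 had 0, 1.24, 0, 2.52 and 5.02 CPM in acute IP, 0, 0, 0 and 9.69 CPM in chronic IP, and 0 reads in all 5 healthy IP libraries. Against the floor of 3 reads over the healthy group, its level pooled over the acute IP libraries was at least 59.6-fold higher. Pooled over the chronic IP libraries it was at least 85.7-fold higher. This floor covers counting error only, and not the spread between IP libraries. Neither change passed the test (edgeR adjusted p = 0.541 and 0.334), and the acute and chronic libraries each overlapped the healthy ones. The chronic reads all came from library 4, without which the chronic and healthy groups were at 0. C3ar1, under the filter in IP, had 0, 2.32, 0, 0.290 and 0.359 CPM in acute IP, 1.32 CPM in chronic library 4 and 0 in the other chronic libraries, and 0 in healthy IP. With so many libraries at 0, an exact two-sided permutation test of its CPM could give no p below 0.167 for acute or 0.889 for chronic against healthy, so that no test of it is given. Cfb had 0 counted reads in all 14 IP libraries. For the reads the counting could assign to Cfb, this allows up to 0.0403, 0.0510 and 0.0363 CPM in acute, chronic and healthy IP, for counting error only.

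The C1q genes were found in IP with groups that overlapped. C1qa had 0, 8.50, 12.04, 10.7 and 11.9 CPM in acute IP, 3.48, 3.69, 0 and 22.0 CPM in chronic IP, and 6.88, 9.13, 5.65, 6.61 and 8.81 CPM in healthy IP. Healthy libraries lay inside the range of the acute ones, and chronic libraries lay on both sides. C1qb ranged from 0 to 12.7 CPM in acute, 3.62 to 18.8 CPM in chronic and 0 to 5.44 CPM in healthy IP. C1qc ranged from 0 to 7.35, 0 to 26.8 and 0 to 8.19 CPM. The highest chronic value of all 3 genes was that of library 4. In IP the microglial sum was 7.15 to 42.2 CPM in acute, 24.0 to 95.5 CPM in chronic and 12.2 to 46.4 CPM in healthy libraries, also highest in chronic library 4. The sum of the 12 leukocyte markers was 0 to 11.1 CPM in acute, 0 to 11.8 CPM in chronic and 0 to 12.3 CPM in healthy IP. These leukocyte ranges overlapped, although 1 of the 12 was at 0 in every acute, 10 in every chronic and 11 in every healthy IP library. The part of these cells in the IP values was not tested. Serping1 was at 0 in 2 of 5 acute, 3 of 4 chronic and 4 of 5 healthy IP libraries, with 1.68 to 6.46 CPM in the other acute libraries, 18.4 CPM in chronic library 3 and 3.43 CPM in healthy library 4. Cd59a had 0, 0.593, 0, 2.03 and 0.478 CPM in acute IP, 14.5, 0, 0 and 4.29 CPM in chronic IP, and 8.99, 11.7, 1.55, 3.18 and 5.78 CPM in healthy IP, and the groups overlapped.

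Set against input of the same phase, 1 member passed the test. C3ar1 was lower in healthy IP than in healthy input, at least 14.8-fold by the floor of 3 reads over the group (edgeR adjusted p = 0.00523), and 14.4% of the 16580 genes were called lower there. That floor covers counting error only, and not the spread between IP libraries. In acute and in chronic IP against input edgeR called 0 of 8 members, where 18.7% and 28.7% of all genes were called. None had an unadjusted p under 0.05 in either, DESeq2 called none in either, and voom called Cd59a in the acute and C3ar1 in the chronic comparison, both lower in IP. In the acute phase 4 of the 8 tested members, C1qa, C1qb, C1qc and Cd59a, lay below input in every IP library, as did 24.1% of all genes. C4b was among those that overlapped: its log2 difference, IP over input, was 0.55 ± 0.74 in acute, 0.84 ± 0.84 in chronic and -0.59 ± 0.77 in healthy libraries, none called (edgeR adjusted p = 0.684, 0.56 and 0.713), and the chronic value was 0.01 without library 4 of both fractions. For comparison, the 12 microglial markers had a median of -2.29 in acute, -0.87 in chronic and -1.52 in healthy libraries on the same scale. The 12 astrocyte markers had medians of -1.02, -0.61 and -0.98. Single microglial markers ranged from -4.78 to -0.69 in acute and from -3.89 to 0.18 in chronic libraries. Single astrocyte markers ranged from -2.02 to 0.85 and from -1.82 to 1.40, and the C4b values lay inside these astrocyte ranges.

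Whether the change from healthy differed between the fractions was tested directly. No member passed in the acute or the chronic phase (0 of 8 each by edgeR, with 1 member each at an unadjusted p under 0.05), where 0.00603% and 1.03% of all genes did. DESeq2 called C3 in each and voom called none. For C3 the edgeR adjusted p was 0.721 in the acute and 0.317 in the chronic phase. C3 had 0 reads in healthy IP, and its chronic IP reads all came from library 4. On simulated counts the acute test recovered 7.2% of genes changed 2-fold in acute IP alone and 31.5% of those changed 4-fold. The 0 calls therefore do not show that the fractions changed alike. For C4b the change in IP exceeded that in input by 1.14 ± 1.07 on the log2 scale in the acute phase and 1.43 ± 1.14 in the chronic phase (edgeR adjusted p = 0.92 and 0.758). Per kilobase, C4b had the highest mean of the ranked genes in acute IP (10.3 CPM per kb) and lay at 0.509 in healthy IP, behind C1qa (7.13), Cd59a (3.44), C1qb (1.70) and C1qc (1.53). Its mean of 8.54 in chronic IP rested on library 4. All neighbours in these IP orders overlapped, so the order in IP is a description of the means.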

How the data were processed

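Poly A RNA libraries of the IP and input fractions were sequenced on a NovaSeq6000, per the labels' protocols. The deposited values are counts per gene, made by the authors with featureCounts 1.5.1 on exons, with read pairs and no strand option, against Ensembl release 79 of GRCm38, per the file headers. The submitters' processing notes name STAR 2.4, GRCm38 (mm10) and DESeq2. A deposited column of another unit holds the summed exon length, used for CPM per kilobase. The header names 36 alignment files. The 28 columns held were used; the rest were not analysed here. Symbols were matched for 42462 of 43629 genes (97.3%).

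Counts were analysed with edgeR 4.0.16 in R 4.3.3: filterByExpr (minimum count 10, total 15), TMM scaling and the robust quasi-likelihood test. Input and IP libraries were fitted apart (16381 and 13914 genes), and all 28 together for IP against input and the differences between fractions (16580 genes). P-values were Benjamini-Hochberg adjusted over all genes, and called under 0.05. The prior count for log CPM was 2. Where a whole group was at 0, folds were taken against 3 counts over that group, which covers counting error only. Levels are means ± SD, changes log2 ± SE. The alternatives were DESeq2 1.42.0 (Wald test and size factors), no filter, voom (limma 3.58.1) with library weights, a replicate block, all libraries in 1 fit, each library left out in turn, and a fit without those 4 IP libraries in which the fewest genes were found. Members and lists were chosen with earlier results of these data known. Named genes were the 9 members, a set list of other complement genes with those called in input, of which some are not reported here, and the 3 genes most like each member with a mean log2 CPM of at least 1.

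On simulated data with planted changes, the acute input comparison (16381 genes) recovered 87.7% of genes changed 2-fold and 96.8% of those changed 4-fold, with 9 false among 193 calls. The acute IP comparison (13914 genes) recovered 10.0% and 32.7%, with 0 false among 45 calls. IP libraries had 6198088 to 21229550 counts each, input libraries 17848273 to 27915940. Figures were drawn with matplotlib 3.10.9.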

Additional observations from a re-analysis of the deposited data

Results flagged for a closer look

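Of 49 groups of 4 or 5 libraries tested for a value that stands far from the others, 11 had one. The usual rate of about 1 in 20 assumes independent values with a normal spread. These genes share their libraries, and in IP 1 library with reads beside others at 0 is always flagged. No comparison with chance is therefore made. Chronic library 4 accounts for 7 of the 11. In input it had 33.9 CPM of C1qb (others 12.6 to 13.4), 29.2 CPM of C1qc (others 12.3 to 14.6) and 2.90 CPM of C3ar1 (others 1.23 to 1.39). In IP it had 22.0 CPM of C1qa (others 0 to 3.69), 140.3 CPM of C4b (others 6.25 to 24.1), 9.69 CPM of C3 (others 0) and 1.32 CPM of C3ar1 (others 0). Acute input library 5 had 41.4 CPM of C1qa (others 22.1 to 26.5). Acute IP library 2 had 2.32 CPM of C3ar1 (others 0 to 0.359). Serping1 was found in 1 chronic IP library, number 3, at 18.4 CPM, and in 1 healthy IP library, number 4, at 3.43 CPM. Between the phases of disease, the Serping1 change in input differed: it was -1.27 on the log2 scale in chronic against acute input, by edgeR's test of that contrast.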

How the results depend on the processing

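The 7 calls in acute input held in every refit that left out a library, with DESeq2's size factors, without the filter, with voom and with DESeq2's Wald test. Fitting all 28 libraries together gave 0 member calls in each of the 3 input comparisons and 3 in both acute and chronic IP. In those IP comparisons it called 1611 and 2550 of 16580 genes. The biological coefficient of variation of that fit was 0.71, wider than in input alone (0.101) and narrower than in IP alone (1.06). With libraries left out in turn, the count ranged from 1 to 5 in chronic against healthy input, 1 to 6 in chronic against acute input, 0 to 2 in chronic IP against input and 1 to 2 in healthy IP against input. Voom called 4 members in chronic against acute input, 1 in acute IP, and 1 each in acute and chronic IP against input. Without the filter 1 member (Cfb) was called in acute IP against input. Without those 4 IP libraries in which the fewest genes were found, the fit gave 1 in chronic IP against input and 1 in each test of the difference between fractions. DESeq2's Wald test gave 2 in healthy IP against input and 1 in each of those differences. The sign turned for Cd59a in acute input without healthy library 3 (range over libraries left out -0.17 to 0.0364), for C3ar1 in chronic against acute input with voom (-0.07165) and in refits with a library left out (-0.33 to 0.19), and for its CPM difference in chronic against acute IP, which ranged from -0.59 to 0.169. C3 in chronic IP was 0 without library 4, as the other chronic and the healthy IP libraries held no C3 reads. It was up to 8.67 with another library left out. The cause of the sign turns in Cd59a and C3ar1 was not tested. In IP, 5 of 7 members in chronic against healthy and 7 of 7 in chronic against acute changed sign under some alternative. Library numbers were not treated as pairs, since the labels do not tie them and same-numbered IP and input libraries correlated at only -0.00814 to 0.142, but 3 of 5 acute, 3 of 4 chronic and 4 of 5 healthy matched best with their own number, a hint from the data that some numbers may pair. With a replicate block the member counts stayed 7, 4 and 1 in input, 0 in IP, and 1 in healthy IP against input. Most members were at 0 in some IP libraries, and the part of depth in this was not tested.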
